A study of Mus musculus with 30 samples.

Results

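The FGF and ERBB receptor tyrosine kinases, together with Met, the receptor for hepatocyte growth factor, were read in mammary carcinomas from Myc transgenic mice. The genes Fgfr1, Fgfr2, Fgfr3, Fgfr4, Egfr, Erbb2, Erbb3 and Met were chosen by family, from a list made with earlier results of these log2 ratios in view. Their own ratios are therefore a description and carry no test. They are 8 of the 15096 genes that have a probe with 1 gene symbol on the array, and 11 probes stand for them.

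Each of 15 RNA extracts from Myc carcinomas was hybridised on 2 dual-channel arrays, once per channel, against 1 common reference RNA. Extracts bear codes such as 546-A. Number 579 stands on 5 extracts and number 546 on 2, and the labels do not explain the codes. Of the 30 arrays, 25 were described under the epithelial to mesenchymal transition and 5 under tumour progression. All the extracts share the Myc transgene; no source used here gives its promoter, the strain, the age of the mice or the make-up of the reference. Nor do the labels say whether extracts came from separate mice, so the spread between extracts may be partly technical. In bulk RNA, fewer cells of a type and less RNA per cell cannot be told apart.

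A value below is the log2 ratio of an extract to the reference, averaged over the arrays of the extract. Neither dye nor numerator is stated, so the direction of the ratio is not settled. Positive values lie on the side of the Myc probe, here called the Myc side, and negative values on the opposite side. Positive values likely mean more RNA in the extract, on the sole basis that these tumours carry extra Myc; every high and low would change places if the ratio ran the other way. Ratios are not levels, so no receptor is called more abundant than another.

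Arrays held between 13434 and 21991 measured probes. Tests were run on the 12888 probes (9919 genes) measured on 24 or more of the 30 arrays and in every extract. Extracts 546-A and 548-A were the thinnest, with 4021 and 3000 of the tested probes read on 1 array only. Of the tested genes, 22.9% had their highest value in 546-A. Of all values, 33.6% matched at 3 decimals on the log2 scale a quotient of whole numbers, each 20 or less; these are called simple ratios here. The tissue label was checked against epithelial markers. All 10 tested genes of that list, of 11 listed, were called positive (adjusted p under 0.05), with a median of 2.73 against 0.16 over all genes.

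Receptor tyrosine kinases span the cell membrane, pair when a ligand binds and phosphorylate each other. Adaptor proteins then carry the signal to the RAS, RAF, MEK and ERK chain and to PI3 kinase. FGF receptors bind fibroblast growth factors together with heparan sulphate, ERBB receptors bind ligands of the EGF family, and MET binds hepatocyte growth factor. ERBB2 has no known ligand and ERBB3 has a weak kinase, so the pair signals as partners. In the mouse mammary gland, Fgfr2 is needed for the growth of ducts, and an activated Erbb2 is a classic mammary oncogene.

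The sequences before the start sites of Met and Fgfr2 are shown because the results turn on these genes and the mice carry a Myc transgene, whose product is a factor that binds the E-box CACGTG. They come from the RefSeq promoter table of GRCm38.p6, which held 6 of the 8 genes (none for Fgfr1 and Erbb3). Each run covers the 250 bases before the start, written 5′ to 3′ on the strand of the gene. Capitals mark the E-box and the GC box GGGCGG on either strand. Met lies on the plus strand (chr6:17463707-17463956) and Fgfr2 on the minus strand (chr7:130266809-130267058).
Met: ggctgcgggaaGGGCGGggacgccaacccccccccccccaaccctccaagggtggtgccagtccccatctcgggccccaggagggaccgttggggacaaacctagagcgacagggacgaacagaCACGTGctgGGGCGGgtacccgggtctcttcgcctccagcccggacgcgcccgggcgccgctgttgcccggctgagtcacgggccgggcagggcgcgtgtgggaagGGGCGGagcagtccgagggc
Fgfr2: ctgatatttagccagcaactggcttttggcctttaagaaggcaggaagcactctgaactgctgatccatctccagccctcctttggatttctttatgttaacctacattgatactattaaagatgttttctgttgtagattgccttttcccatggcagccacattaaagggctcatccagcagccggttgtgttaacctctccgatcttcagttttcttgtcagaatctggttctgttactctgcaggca

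The Met sequence holds 1 E-box, which begins 126 bases before the start, and 3 GC boxes. The Fgfr2 sequence holds neither, and its window has 1 E-box 28 bases after the start, outside the stretch shown. Of 32851 RefSeq windows of 300 bases (250 before and 50 after the start), 7.15% hold an E-box and 35.7% a GC box. A match says only that the letters are there.

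Across the family, a few carcinomas stood far from the rest while most ratios stayed near 0. Fgfr2 was high in 3 extracts, Met in 1 and Fgfr1 in 1, and Erbb3 was positive in nearly all. Egfr varied least. Of the 11 probes, 8 passed the filter, for 6 genes; the probes of Fgfr3 and Fgfr4 and the second Erbb3 probe (8971) did not. The 3 called against the reference (2 probes of Erbb2 and 1 of Erbb3) were all positive; of all tested probes, 30.4% were called positive and 16.9% negative. The 3 called between extracts were those of Fgfr1, Fgfr2 and Met, beside 6.73% of all tested probes. Since the list was chosen from these contrasts, nothing is read from those counts.

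**Figure D1:**
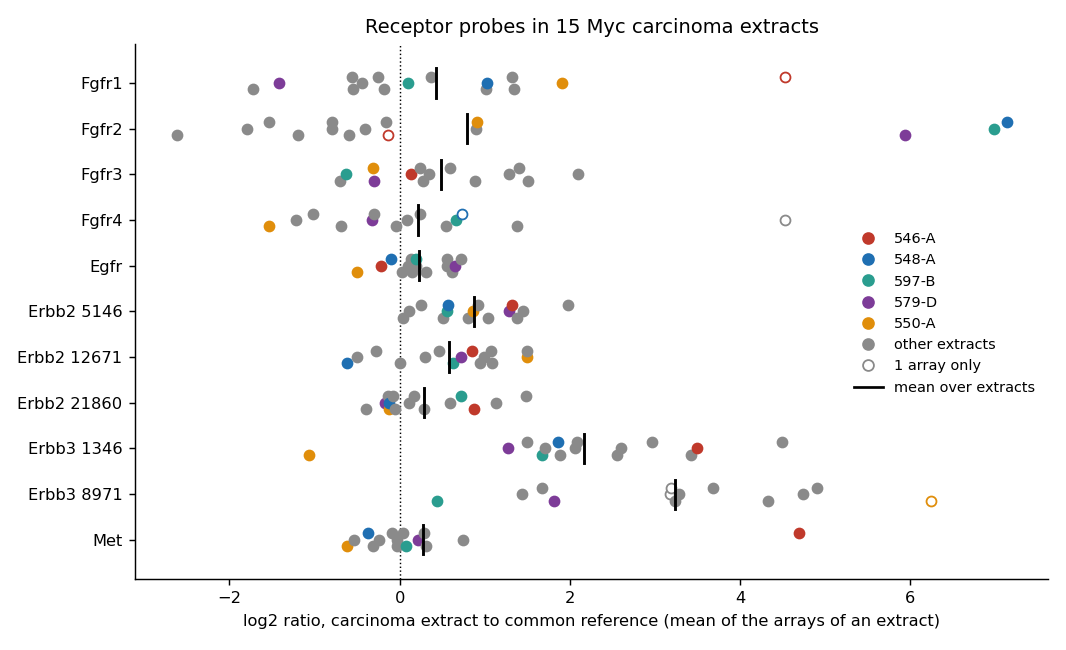
Log2 ratio to the common reference (x axis) of each receptor probe (rows; the probe number is given where a gene has several) in the 15 carcinoma extracts; open points rest on 1 array and bars mark the mean over extracts. Fgfr2 is above 5.9 in 548-A, 597-B and 579-D, Met is 4.70 in 546-A, and the Erbb3 probe 1346 is below 0 only in 550-A.

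Fgfr2 split the carcinomas into 3 with high ratios and 12 without. It read 7.11 and 7.16 on the paired arrays of 548-A, 6.785 and 7.19 on those of 597-B, and 5.88 and 5.985 on those of 579-D. The other 12 extracts ran from -2.62 (579-A) to 0.91 (550-A), and the median over all 15 was -0.40. The lowest array of the 3 extracts stood at 5.88 and the highest array of the others at 1.585. The split was made on these same values, so the lack of overlap describes it and tests nothing. The gap between the third and the fourth extract was 5.03, and no other of the 12888 tested probes had a gap of that size there. The SD over extracts was 3.20, rank 4 of all tested probes.

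Below that gap Fgfr2 was hard to order. Of its 29 measured values, 10 were simple ratios. The values in the 3 high extracts lie above the largest possible simple ratio, so this count says nothing about them. In 595-A the paired arrays read -1.98 and 0.78, and in 579-E -1.27 and 0.95, wider than the gaps between most of these extracts. In the high extracts 4 of 6 values were not the log2 of a whole number, while both values in 548-A were (138 and 143). Among all values of 7 to 8 in size, 37.1% had this form, against 12.8% if they were spread evenly. Channel intensities were not used here.

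**Figure D2:**
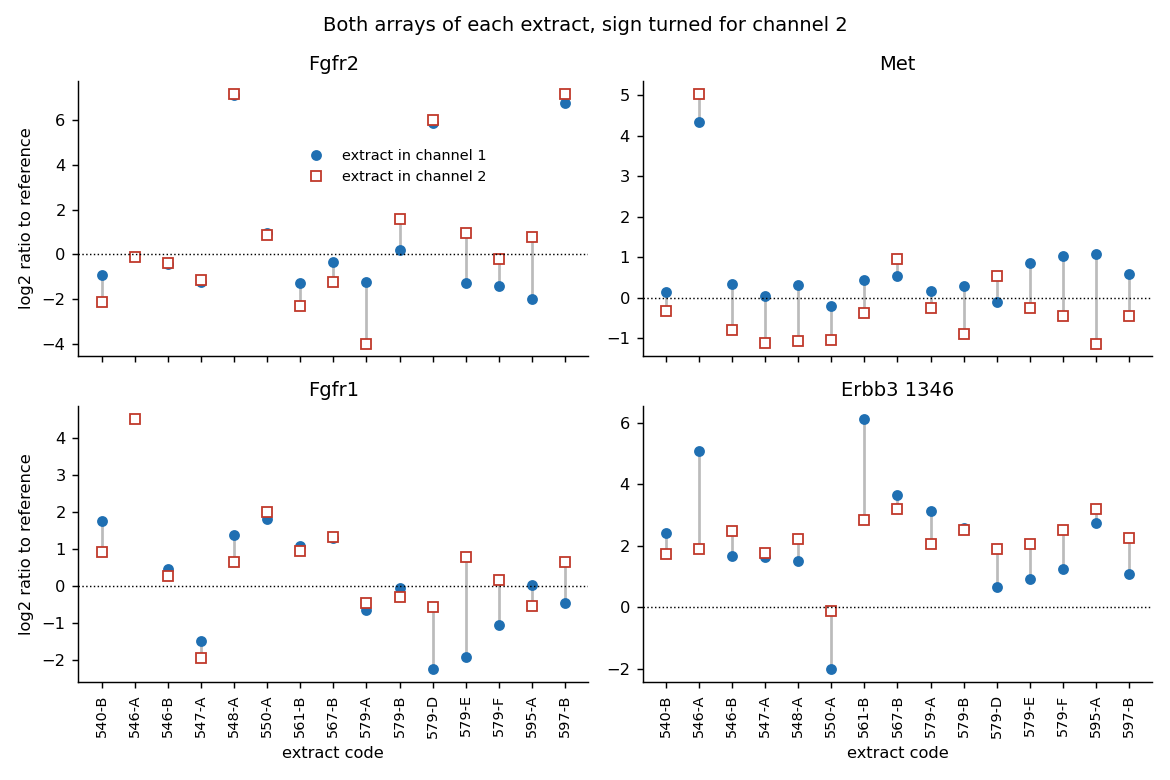
Log2 ratio to the reference (y axis) on both arrays of each extract (x axis) for Fgfr2, Met, Fgfr1 and the Erbb3 probe 1346, with the sign turned where the extract was in channel 2; grey lines join paired arrays. For Fgfr2 the paired arrays of 548-A (7.11 and 7.16), 597-B and 579-D lie close together above all others, and for Met both arrays of 546-A do (4.35 and 5.04).

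Few genes could be set beside Fgfr2, since the likeness rule asks for a spread of at least 0.8 times its own and left 9 genes. The nearest were Dio1, a deiodinase of thyroid hormone, Car6, a secreted carbonic anhydrase, and Maged1. Their root mean square differences from Fgfr2 over the 15 extracts, after centring, were 2.75, 2.89 and 3.21. These are 0.859, 0.904 and 1 times the SD of Fgfr2 itself, so none was a close match. Dio1 and Car6 were high in all 3 extracts with high Fgfr2. In 548-A, 579-D and 597-B, Dio1 read 7.27, 6.98 and 5.21, and Car6 8.11, 6.90 and 7.47. Both were also high in extracts where Fgfr2 was not. Dio1 stood at 5.77 in 579-E and 5.49 in 546-B, and Car6 at 7.20 and 6.75, where Fgfr2 read -0.16 and -0.40.

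The genes around Fgfr2 on chromosome 7 did not share its pattern. Of the 10 tested neighbours fixed by the rule (5 on either side in the RefSeq gene order), 0 were called between extracts by limma, beside 7.22% of all genes. Tial1, 3 steps before it, and Ate1, the next tested gene after it, differed from their own means over the other extracts by 0.26 and -0.54 in 548-A. In a longer run of 30 genes, added after those values were seen, none had all 3 of these extracts above the other 12.

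Fgfr1, the other main FGF receptor of connective tissue and epithelium, had its highest ratio in 546-A, at 4.52, on 1 array. Next came 550-A with 1.81 and 2.02 on the paired arrays, then 540-B (mean 1.34) and 567-B (1.32). The lowest were 547-A, with -1.49 and -1.95, and 579-D, with -2.25 and -0.57. The median was 0.10. The means of 540-B and 567-B differed by 0.02, well inside the median difference of 0.52 between paired arrays, as did those of 548-A and 561-B (both 1.02). Over 15 extracts the mean was 0.43 ± 1.53 (SD); without 546-A it was 0.14 with an SD of 1.07.

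Matrix genes shared part of the Fgfr1 pattern. The gene most like it was Postn, which encodes the matrix protein periostin, with a root mean square difference of 0.75 over 15 extracts, followed by Wfdc2 (0.90) and Lta (0.92). The fibroblast and matrix list (10 of 12 genes tested), centred gene by gene, was highest in 546-A (2.495), then 550-A (1.72) and 540-B (1.58), and lowest in 579-D (-1.82). All 10 of its genes lay above their own means in 546-A and in 550-A. In 548-A, however, the list stood at -1.18 while Fgfr1 read 1.02. The part of these cells in the Fgfr1 ratios was not tested. Of 10 neighbours of Fgfr1 on chromosome 8, none stood more than 1.14 above its own mean in 546-A.

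Fgfr3 was read in 14 extracts, with no value in 548-A. It was highest in 546-B, where the paired arrays read 1.87 and 2.31, and next in 540-B, with 1.70 and 1.32. These 2 extracts were the ones where both arrays gave values above 1.3. It was lowest in 547-A (-2.08 and 0.67). The order below them cannot be read, since in 597-B the arrays gave -2.64 and 1.38 and in 579-F -1.09 and 3.66. The mean was 0.49 ± 0.85 (SD, n = 14 extracts).

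Fgfr4, better known from liver and muscle, was read in 14 extracts, with no value in 546-A, and 13 of its 26 values were simple ratios. Its highest value, 4.52 in 579-F, rested on 1 array. The others ran from -1.53 (550-A) to 1.38 (561-B). The mean was 0.22 ± 1.48 (SD, n = 14 extracts), and it changed side to -0.11 without 579-F. The values of Fgfr4 in 579-F, of Fgfr1 in 546-A and of the second Erbb3 probe on 1 array of 579-B were the same to 3 decimals, 4.524, which is the log2 of 23. Among all values of 4 to 5 in size, 47.5% were the log2 of a whole number, against 1.6% if they were spread evenly.

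Among the ERBB receptors, Erbb3 lay farthest from the reference. Its probe 1346 was positive in 14 of 15 extracts, with a median of 2.06 and a mean of 2.17 ± 1.26 (SD). The highest mean was in 561-B, at 4.49, where the paired arrays gave 6.13 (the log2 of 70) and 2.85 and so lay far apart. In 546-A they gave 5.10 and 1.90. Between 1.27 (579-D) and 2.97 (595-A) lay 11 extracts whose neighbours in order differed by at most 0.47, against a median difference of 1.06 between paired arrays.

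The exception was 550-A, where probe 1346 read -2.01 and -0.11. It lay 2.33 below the next lowest extract, 579-D. Without 550-A the mean was 2.40 and the SD 0.92. The second probe, 8971, was read on 23 arrays and did not show this: it gave 6.24 in 550-A, on 1 array, its highest value. Over 13 extracts that probe was positive throughout, at a mean of 3.24 ± 1.61 (SD), but its paired arrays differed by a median of 2.38. The Erbb3 value in 550-A thus depends on the probe.

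Genes that followed probe 1346 most closely were Slc25a23, a mitochondrial carrier, Shroom1 and Lipm, with root mean square differences of 0.69, 0.69 and 0.70 over 15 extracts. In 550-A, the epithelial marker list, centred gene by gene, stood at -0.53, with 3 of 10 genes above their own means. It was lower in 579-F (-0.65) and 579-D (-0.59), where Erbb3 read 1.88 and 1.27. The basal and myoepithelial list had its highest value, 0.87, in 550-A. The part of these cells in the Erbb3 ratio was not tested.

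Erbb2 was represented by 3 probes that differed in size. The extract mean of probe 5146 was positive in 15 of 15 extracts, from 0.04 (579-F) to 1.97 (561-B), with a mean of 0.87 ± 0.55 (SD). Its paired arrays lay on one side of 0 in only 8 of the 15. In 540-B they gave 1.611 and -0.585, and in 597-B -0.527 and 1.635. Averaged over arrays, this probe gave 0.64 in channel 1 and 1.11 in channel 2. Probe 12671 was positive in 11, at 0.58 ± 0.67, and probe 21860 in 8, at 0.28 ± 0.55. All 3 probes had their highest value in 561-B, at 1.97, 1.495 and 1.49. No extract mean of any Erbb2 probe passed the 1.97 of 561-B, while Fgfr2 and Met reached 7.13 and 4.70.

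Egfr, the receptor for EGF, TGF-alpha and amphiregulin, had the narrowest spread of the family. It ran from -0.50 (550-A) to 0.72 (579-F), with a median of 0.19 and a mean of 0.22 ± 0.35 (SD, n = 15 extracts). It was positive in 12 extracts. Its 5 highest extracts, 579-F, 579-D, 579-E, 567-B and 595-A, lay between 0.55 and 0.72, closer together than the median difference of 0.30 between paired arrays.

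Met stood out in a single carcinoma. It read 4.35 and 5.04 on the paired arrays of 546-A, a mean of 4.70. The 5.04 was the log2 of a whole number (33), and the 4.35 was not. Among all values of 5 to 6 in size, 50.9% had this form, against 3.2% if they were spread evenly. The other 14 extracts ran from -0.62 (550-A) to 0.75 (567-B), and the median was -0.03. Extract 546-B, which shares the number 546, read 0.33 and -0.81. The gap of 3.95 to the second extract was matched or passed by 26 of the 12888 tested probes, Met included, and 13 of the 26 were highest in 546-A. The mean over extracts was 0.28 ± 1.27 (SD); without 546-A it was -0.04 and the SD was 0.37. The paired arrays of most other extracts lay on both sides of 0, so their order cannot be read.

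A block of genes next to Met on chromosome 6 was high in the same extract. St7 read 8.62 and 6.41 on the arrays of 546-A, Tes 6.31 and 6.26, and Capza2, an actin-capping subunit, 6.05 and 6.07. Lsm8, which serves RNA splicing, read 6.02 and 5.37, and Cav2, a caveolin of membrane pits, 5.62 and 5.49. In the other 14 extracts none of these 5 genes exceeded 0.72. Cav1, the main caveolin, read 1.46 and 1.97, against -7.42 to -1.30 elsewhere.

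By the neighbour rule, 7 of 10 tested genes around Met had their highest value in 546-A: these 6 and Tfec, at 2.585 on 1 array with 15 simple ratios over all arrays. Between extracts 7 of the 10 were called, beside 7.22% of all genes. The limma F-test gave adjusted p = 3.95e-08 for Capza2, 6.61e-07 for Tes, 4.40e-06 for Lsm8, 3.81e-05 for Cav2, 9.14e-05 for Cav1 and 0.00113 for St7. The seventh was Mdfic (adjusted p = 0.0428), which read -0.13 in 546-A and lay inside the range of the other extracts.

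The block had edges on both sides. In a run of 30 tested genes around Met, added after the first values were seen, 6 stood more than 4 above their mean over the other extracts in 546-A, and all lay between Tes and Lsm8. Outside it, Tfec, the tested gene next to Tes, read 2.585 on 1 array, and Mdfic, the one after that, -0.13. On the other side Ing3 read 0.28. Lsm8 lies 18 genes from Met and Ing3 36, with no tested gene between them, so that edge was not placed closely. Within it, Wnt2 (11 simple ratios) was at -0.32 on 1 array. Of the 13 probes as far apart as Met in 546-A, 6 belonged to Met and this block, 1 of the other 7 had no gene name, and the named ones lay on other chromosomes. Extract 546-B did not share it, with Capza2 at 0.08 and Tes at -0.51.

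**Figure D3:**
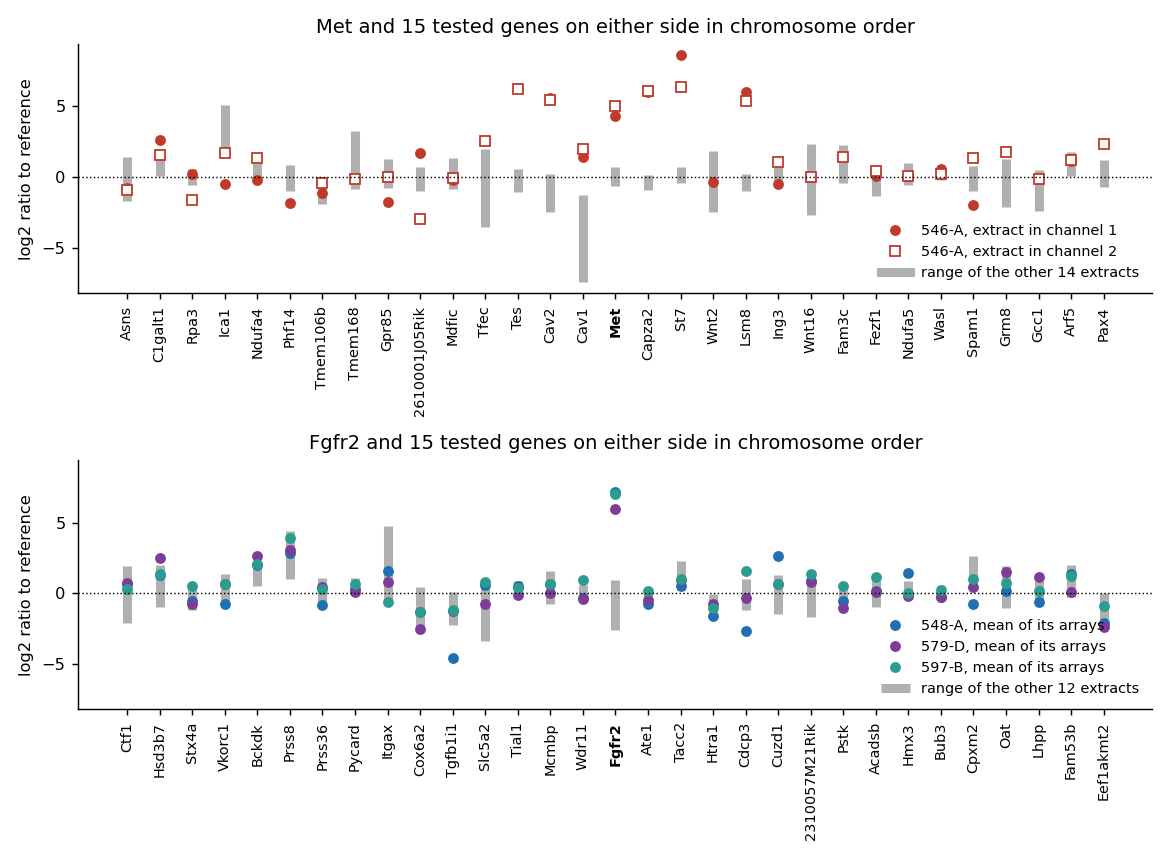
Log2 ratio to the reference (y axis) of the tested genes on either side of Met and of Fgfr2 in RefSeq order (x axis; steps are genes, not distances). In the upper panel both arrays of 546-A stand far above the grey range of the other 14 extracts from Tes to Lsm8, apart from Wnt2; in the lower panel 548-A, 579-D and 597-B rise above the range of the other 12 together at Fgfr2 alone.

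The genes most like Met over the 15 extracts lay elsewhere in the genome. They were Atp6v0b, a proton pump subunit (root mean square difference 0.34), D530049I02Rik (0.43) and Arhgap18 (0.44). Each had its highest value in 546-A, at 4.91, 5.502 and 2.81, the first on 1 array. Cell type lists were also high in 546-A. Centred gene by gene, the skeletal muscle list was highest there, at 3.65 (5 of 5 tested genes, of 8 listed, above their own means), followed by 546-B at 2.11. The fibroblast list stood at 2.495 and the epithelial list at 0.45. In 546-B, Met read -0.24. The part of these cell types in the Met ratio was not tested.

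The channel of the extract shifted several receptors. Erbb2 probe 12671 averaged -0.31 on arrays with the extract in channel 1 and 1.46 with it in channel 2 (n = 15 arrays each), so its side depended on the orientation. Probe 21860 gave -0.25 and 0.82, and Fgfr3 -0.29 and 1.27. Met went the other way, with 0.66 in channel 1 and -0.11 in channel 2. The means of Fgfr2 (0.77 and 0.86) and Erbb3 probe 1346 (2.16 and 2.17) hardly moved. Their paired arrays still differed by medians of 0.96 and 1.06, in either direction. The high values of Fgfr2 in 548-A, 579-D and 597-B and of Met in 546-A were present in both orientations. The high Fgfr1 value in 546-A was read in channel 2 only.

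**Figure D4:**
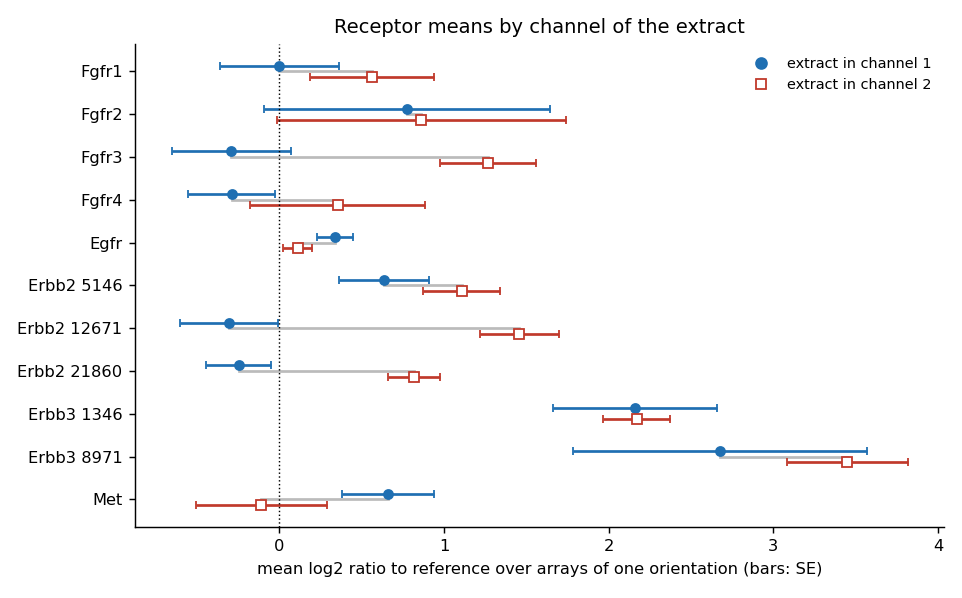
Mean log2 ratio to the reference (x axis) of each receptor probe (rows) over arrays with the extract in channel 1 and in channel 2, with the SE over arrays. Erbb2 probe 12671 changes side (-0.31 and 1.46). The mean of Erbb3 probe 1346 does not move (2.16 and 2.17), although its paired arrays differ by a median of 1.06, in either direction.

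Ligands of these receptors were thinly measured. Of 18 FGF genes 10 were tested, and against the reference 1 was called positive, 2 negative and 7 not, beside 33.5% (positive) and 14.9% (negative) of all genes. Fgf10, the stromal ligand of Fgfr2 in the mammary gland, was at -1.26 ± 1.44 (SD, n = 15; limma adjusted p = 0.00528) and negative in 14 extracts, with its lowest value of -5.36 in 546-A, but its mean was -2.53 in channel 1 and 0.23 in channel 2. Fgf8 was at 0.56 ± 0.48 (adjusted p = 0.00154) and positive in 13. The median of the list was -0.20, beside 0.16 over all genes.

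Of 11 ERBB ligand genes 4 were tested; 1 was called positive and 1 negative, beside 33.5% and 14.9% of all genes. Ereg, the gene of epiregulin, was at -2.53 ± 1.25 (SD, n = 15; limma adjusted p = 2.44e-06) and negative in 14 extracts. Tgfa was at 0.26 ± 0.30 (adjusted p = 0.0252), positive in 13. Of the 8 genes around the Met ligand 3 were tested. Spint2, an inhibitor of the proteases that activate hepatocyte growth factor, was positive in all 15 extracts at 2.95 ± 0.47 (adjusted p = 4.60e-12), while St14 and Mst1 were not called. None of the 17 tested ligand and activation genes was called between extracts by limma, beside 7.22% of all genes.

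Co-receptors and the enzymes of heparan sulphate were called about as often as other genes. Of 16 tested genes 6 were called positive, 3 negative and 7 not, beside 33.5% (positive) and 14.9% (negative) of all genes, with a median of 0.17. Sdc2, a syndecan of mesenchymal cells, was at -2.17 ± 0.83 (SD, n = 15; adjusted p = 1.71e-07) and negative in every extract, and Ext1, which builds the heparan sulphate chain, at -1.06 ± 1.12 (adjusted p = 0.00352) and negative in 13. Flrt3, a membrane partner of FGF receptors, was at 0.93 ± 1.03 (adjusted p = 0.00482), but its mean was -0.15 in channel 1 and 1.85 in channel 2. Ext1 was also the 1 gene of the list that differed between extracts (adjusted p = 0.00878), from -3.32 in 548-A to 1.21 in 550-A.

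Among adaptors and kinases, 8 of 23 tested genes were called positive, 2 negative and 13 not, again beside 33.5% and 14.9% of all genes, with a median of 0.23. The largest was Pik3r1, the regulatory subunit of PI3 kinase, at 1.4999 ± 1.08 (SD, n = 15; adjusted p = 0.000136). Next came Grb7, an adaptor whose gene neighbours Erbb2, at 1.35 ± 0.74 (adjusted p = 1.15e-05), and Stat5a, which drives milk gene expression, at 1.21 ± 0.74 (adjusted p = 3.62e-05). Each was positive in 14 extracts. Between extracts 4 of the 23 were called, beside 7.22% of all genes. They included Pik3r2, up to 3.51 in 579-E (adjusted p = 0.00121), Pik3r1, from -1.51 in 547-A to 2.97 in 567-B (0.00621), and Rasa1, a RAS inhibitor, up to 1.16 in 546-A (0.0143); the other, Gab2, had 13 simple ratios.

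The feedback inhibitor list holds genes that dampen receptor signalling, of which ERK signalling induces only some. Most were not called against the reference: 1 of 11 was called positive and 10 were not, with a median of 0.12. Of all genes, 33.5% were called positive and 14.9% negative. That gene was Cblc, an epithelial ubiquitin ligase, positive in all 15 extracts at 1.41 ± 0.67 (SD; adjusted p = 2.47e-06). Between extracts 3 of 11 were called (7.22% of all genes), Dusp6, Socs3 and Spred1, and all had their highest value in 546-A, as did 7 of the 11 tested genes. The share of all tested genes with their highest value there was 22.9%.

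Dusp6, the phosphatase that removes phosphate from ERK, varied most clearly (adjusted p = 1.06e-05). It was positive in 6 extracts and negative in 9. The positive ones were 546-A (1.48), 579-D (1.31), 550-A (1.31), 548-A (0.59), 597-B (0.24) and 540-B (0.09), and the lowest was 561-B (-2.49). The extract with high Met and the 3 with high Fgfr2 were thus among the 6, beside 550-A and 540-B, where neither receptor was high. The Dusp6 values of 597-B and 540-B lay close to the boundary between the sides, and arrays were not centred. Spred1 read 2.15 in 546-A and 1.19 in 550-A (adjusted p = 0.0482), and Socs3 1.68 in 546-A (adjusted p = 0.00369). These genes did not share the Dusp6 order in 548-A, 579-D and 597-B. There Spred1 read 0.47, -0.01 and -0.01, and Socs3 -1.30, its lowest value, -1.125 and -0.59.

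Of 11 tested ERK target genes, 1 was called positive (33.5% of all genes), 5 negative (14.9% of all genes) and 5 not, with a median of -0.48. Phlda1 was at 2.19 ± 1.16 (SD, n = 15; adjusted p = 5.40e-06). Fos was at -1.84 ± 1.30 (adjusted p = 0.000103) and Fosl1 at -1.77 ± 0.65 (adjusted p = 1.55e-07), each negative in 14 extracts. Between extracts 6 of the 11 were called, beside 7.22% of all genes: Etv1, Etv5, Fos, Ier3, Phlda1 and Ccnd1.

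Phlda1 and Etv1 had their highest values in extracts with high Fgfr2, but not only there. Phlda1 (adjusted p = 5.86e-05 between extracts) read 4.07 in 579-D, 3.62 in 546-A, 3.27 in 597-B, 3.15 in 579-F and 3.03 in 548-A, and -0.45 in 547-A. Etv1, an ETS factor (adjusted p = 0.0472), read 2.07 in 579-D, 1.67 in 597-B, 1.34 in 579-E, 0.67 in 548-A and 0.55 in 561-B. Its other extracts were negative, with -1.17 in 546-A and -2.17 in 550-A. Ccnd1, the gene of cyclin D1 (adjusted p = 0.0103), was highest in 550-A, at 1.47, and Ier3 (0.00378) in 597-B, at 1.18. Etv5 was highest in 546-A, at 1.49. Other genes of the list were low in these extracts. Fos was lowest in 546-A, at -5.43, and read -2.68 in 548-A, -2.32 in 579-D and -1.49 in 597-B. Egr1 and Fosl1, not called between extracts, were lowest in 548-A, at -3.48 and -2.745. The extracts with high Fgfr2 were picked by their own Fgfr2 values, so setting these genes beside them is a description. No test of a link with a receptor was made.

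**Figure D5:**
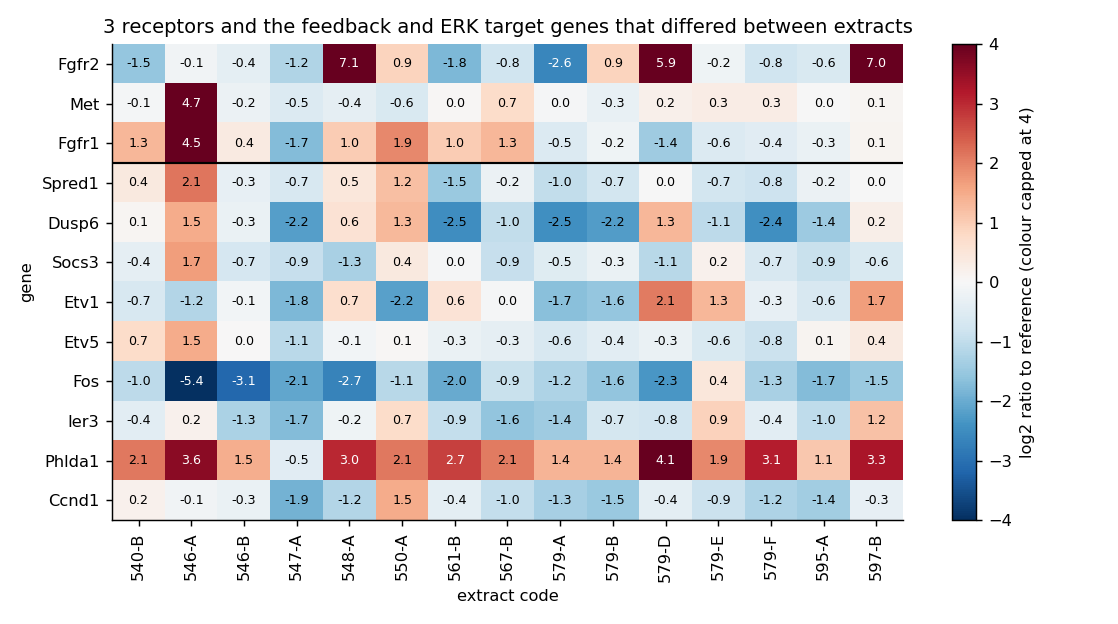
Log2 ratio to the reference (colour, and number in each cell) of Fgfr2, Met and Fgfr1 (upper rows) and of the feedback inhibitor and ERK target genes called between extracts (lower rows) in the 15 extracts (columns). Dusp6 is positive in 546-A, 548-A, 550-A, 579-D, 597-B and 540-B and negative in the others.

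Of 29 tested genes for other receptor tyrosine kinases, 14 were called positive, 4 negative and 11 not, beside 33.5% and 14.9% of all genes, with a median of 0.47. These counts depended on the orientation: 4 were positive and 7 negative with the extract in channel 1 only, and 22 positive and 4 negative in channel 2 only. Kit, the receptor for stem cell factor, was positive in all 15 extracts at 1.59 ± 0.93 (SD; adjusted p = 1.69e-05). Among the negative ones, Ntrk3 was at -4.08 ± 1.505 (adjusted p = 8.08e-08) and Ddr2, a collagen receptor of mesenchymal cells, at -3.03 ± 0.90 (adjusted p = 8.16e-09). Erbb4, the fourth ERBB receptor, was at 0.49 ± 0.61 (adjusted p = 0.0144), but its mean was -0.45 in channel 1 and 1.42 in channel 2. Only Ntrk3 of the 29 was called between extracts (adjusted p = 0.0183; 7.22% of all genes), with -7.30 in 548-A and -2.33 in 579-E. Leaving out either 546-A and 548-A or the orientation term, limma called 0 of the 29.

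The labels allow a pair of comparisons between extracts. In the first, the 5 extracts numbered 579 were compared with the 10 under other numbers, and of all tested probes 0% passed (limma, 0 called; 460 at an unadjusted p under 0.05). Fgfr1 was at -0.63 ± 0.46 (SD, n = 5) in number 579 and 0.96 ± 1.62 (n = 10) in the others, and the ranges overlapped (-1.41 to -0.18 in number 579, -1.72 to 4.52 in the others). Egfr was at 0.49 ± 0.25 in number 579 and 0.09 ± 0.32 in the others, also with overlap. The 3 extracts with high Fgfr2 carried 3 different numbers, and within number 579 Fgfr2 ran from -2.62 (579-A) to 5.93 (579-D).

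The tumour progression description (550-A and 561-B) was set against the epithelial to mesenchymal one (12 extracts; 595-A carries both and was left out). Of all tested probes 0.00776% passed, which is 1 probe, of 4930404H24Rik, at -3.26 (limma adjusted p = 0.0405); 525 had an unadjusted p under 0.05. Erbb2 probe 12671 read 1.49 and 1.495 in the progression extracts, against -0.61 to 1.09 in the 12 others. Behind these means lay paired arrays of 0.78 and 2.20 in 550-A, and of 0.83 and 2.16 in 561-B. Erbb2 probe 5146 read 0.865 and 1.97 against 0.04 to 1.375, and probe 21860 -0.13 and 1.49 against -0.40 to 1.14. The second Erbb3 probe read 6.24 (on 1 array) and 4.74 against 0.43 to 4.32 in 10 extracts. Erbb3 probe 1346 read -1.06 and 4.49 against 1.27 to 3.497. How many of all tested probes part in this way was not counted, so nothing is read from it. No receptor probe was among those called in either comparison.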

How the data were processed

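The authors deposited log2 ratios per probe, with 1 column for each array; the log2 scale was read from the values, and the scanner, background correction and normalization were not given in the sources. The value 16.61 (8839 cells) was taken as a placeholder and, like 95268 blank cells, as missing, which left 84.8% of 22800 probes on 30 arrays. Array medians as deposited ran from -1.14 to 0.415, so the deposited columns were not centred; they were used as they stand. The sign was turned where the extract was in channel 2, because of how the arrays correlated as deposited, across tested probes. Between different extracts the median r was 0.557 (both in channel 1), 0.572 (both in channel 2) and -0.172 (opposite orientation). Paired arrays of 1 extract correlated at -0.472 to 0.0385, below 0 in 13 extracts. Different extracts in one orientation were thus typically more alike than the paired arrays of 1 extract, even after the turn. Genes came from the platform annotation: 16874 probes had 1 symbol, 134 several and 5792 none. For each extract the arrays were averaged.

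Extract means were tested against 0, between the numbers and between the descriptions, and the 30 arrays between extracts (F-test with an orientation term), with limma 3.58.1 in R 4.3.3 over all 12888 probes, with Benjamini-Hochberg adjustment and a threshold of 0.05. A single reference RNA served all arrays, and these tests do not include its variation. The fits were tested on simulated data. Where a gene had several tested probes, the one with most arrays, then fewest simple ratios, was read.

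The receptors, gene lists and markers were chosen with earlier results of these data known. In each list the text names up to 3 called genes with the largest mean on one side in at least 13 extracts and up to 3 with the smallest p between extracts, and a few more chosen after their values were seen. Likeness used members with an SD of at least 1 over extracts. The other marker lists, centred gene by gene, peaked in 546-A (macrophage 0.99, lymphocyte 0.77), 540-B (endothelial 0.89) and 579-A (adipocyte 0.69). Alternatives were array centring, a filter on complete probes, single orientations, no orientation term, all probes read in at least 3 extracts, number as a random block, the mean of a gene's probes, no simple ratios and leaving out extracts.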

Additional observations from a re-analysis of the deposited data

Results flagged for a closer look

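Receptor probes were examined for an extract far from the others of its kind, within number 579 and within the other numbers (22 groups of probes and extracts, of which chance marks about 1 in 20). The receptors were chosen with these values known, so the marks describe them and test nothing. In 3 groups the gap to the nearest extract exceeded Dixon's critical value. Met in 546-A, at 4.6960, took 0.743 of the range of the 10 extracts of other numbers (critical value 0.466), on both arrays. Erbb3 probe 1346 in 550-A, at -1.0605, took 0.492 of it, and the second probe of the gene did not share the low value. Fgfr4 in 579-F, at 4.5240 on 1 array, took 0.822 of the range of number 579 (critical value 0.71).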

How the results depend on the processing

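Against the reference 6088 probes were called; the 4047 called among 6801 complete probes come from a smaller table. Of the calls 64.3% lay on the Myc side, 54.5% after array medians were subtracted, 41.3% with the extract in channel 1 and 76.1% in channel 2. Between extracts 867 probes were called, 393 without an orientation term and 472 without 546-A and 548-A; centring (726), each probe's own arrays (801, added after seeing the data) and complete probes (952) stayed within 1.5 times. The 1 probe called between descriptions became 0 after array medians were subtracted, in either channel alone, with complete probes and without 546-A and 548-A, and leaving out single extracts gave 0 to 4. Number 579 gave 0 throughout. Pathway genes of the 7 lists other than the other receptors (78 tested) gave 19 positive and 13 negative calls; channel 1 alone gave 26 negative, channel 2 alone 33 positive, and complete probes (48 tested) 12 and 6. The other receptors (29 tested) gave 14 positive and 4 negative calls, 10 and 4 after array medians were subtracted. Between extracts 14 genes of the 7 lists were called, 8 without an orientation term and 8 without 546-A and 548-A. Erbb2 probe 12671 (0.5753) turned to -0.3075 in channel 1 and moved to 1.4581 in channel 2. Without single extracts, the Met mean ran from -0.04 to 0.34 and that of Fgfr4 from -0.11 to 0.35. The causes were not tested. No paired analysis was possible because all extracts belong to 1 group.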
